A study of Homo sapiens with 2 samples.

Results

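Complement is a blood-borne defence system whose proteins are also made by cells of connective tissue, and the genes described here encode factors and regulators of its activation. They are CFI, CFB, CFD, C1R, C1S, C3, CD46, CD55 and CD59, 9 genes in all, taken as a family around CFI. CFI was chosen by its log2 ratio between the cell lines of this study, which was among the lowest, so its values are given below as a description, without a test. On the arrays, 8 of the 9 genes were represented by 16 cDNA clones in 19 of 41568 spots. C3 was not analysed here. Of the 16 clones, 14 were usable on both arrays and tested, out of 34674 clones tested in all.

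The samples came from human osteosarcoma cells. Saos-2-2 is a clone of the line Saos-2 that expresses an shRNA against TSG101 and was isolated by puromycin resistance and GFP fluorescence, and Saos-2 is its parent, which carries no TSG101 shRNA. No line with a control shRNA was on the arrays, so that effects of cloning or selection and of the shRNA cannot be told apart. Total RNA of Saos-2-2 in Cy5 and of Saos-2 in Cy3 was hybridised together on each of 2 arrays, 1 for each biological replicate. The dyes were not exchanged, and a dye effect and a difference between the lines cannot be told apart.

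Complement activation converges on cleavage of C3. In the classical pathway the proteases C1r and C1s, bound to C1q, cleave C4 and C2 to form a C3 convertase. In the alternative pathway factor D cleaves factor B on C3b to form another convertase, and amplification is held in check by factor I, a plasma protease that cuts C3b and C4b only in the presence of a cofactor. Host cells carry membrane regulators of their own. CD46 serves as such a cofactor, CD55 speeds the decay of the convertases, and CD59 blocks assembly of the membrane attack complex.

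Promoters were available for 7 of the 9 genes (RefSeq, GRCh38.p14, each with 250 bases before the start of the gene and 50 after it). Those of CFI and CD59 are shown because these were the only members of which every tested clone was below 0 on both arrays. Both are read 5′ to 3′ on the minus strand, CFI at chr4:109801950-109802249 and CD59 at chr11:33736430-33736729. Capitals mark CCAAT, TTCNNNGAA and GGGCGG, the letters known to be bound by NF-Y, STAT and Sp factors, searched on both strands with TATAAA (the TATA box) and TGACTCA (AP-1).
CFI: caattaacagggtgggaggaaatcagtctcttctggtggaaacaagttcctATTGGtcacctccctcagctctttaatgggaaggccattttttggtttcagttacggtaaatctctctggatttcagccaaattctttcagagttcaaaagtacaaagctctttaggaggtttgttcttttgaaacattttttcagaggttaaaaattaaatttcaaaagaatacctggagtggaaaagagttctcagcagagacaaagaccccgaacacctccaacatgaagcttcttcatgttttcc
CD59: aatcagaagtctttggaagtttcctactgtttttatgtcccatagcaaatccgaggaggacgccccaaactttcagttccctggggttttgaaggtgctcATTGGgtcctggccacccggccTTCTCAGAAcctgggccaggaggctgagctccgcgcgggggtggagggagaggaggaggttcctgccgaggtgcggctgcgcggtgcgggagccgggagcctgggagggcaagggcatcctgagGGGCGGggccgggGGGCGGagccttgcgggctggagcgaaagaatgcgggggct
The CFI promoter had a GC content of 39.3%, against a median of 58.3% over 27305 promoters, and the CD59 promoter had 64.3%. CFI held 1 of the letter runs, CCAAT on the reverse strand (ATTGG) with its first base at -199, and CD59 held ATTGG at -150, TTCTCAGAA at -128 and GGGCGG at -4 and 10. CCAAT was found in 35.7% of all promoters and in those of CFI, CD46 and CD59, and TTCNNNGAA in 7.88% and in those of CD59 and CFB. GGGCGG was found in 44.6% and in those of CD46, CD55, CD59 and CFD, TATAAA in 12% and in that of CFB, and TGACTCA in 4.92% and in that of no member. No search motif overlapped another in CFI or CD59, and a match in letters is a description.

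The arrays agreed in part. Across clones the log2 ratios of the 2 arrays had a Pearson correlation of 0.49, a value across clones, which are not independent replicates. Median signal over local background lay between 3.85 and 4.10 in both lines. TSG101 itself was at -0.48 and -0.24 (mean -0.36, standard error 0.12, limma adjusted p = 0.201). The study assayed its clones for TSG101 expression and reports less TSG101 protein in Saos-2-2 by Western blot. The arrays measure RNA and not protein. The cell type label was checked on osteoblast markers, of which 11 of 12 were tested, and 8 of these 11 had opposite signs on the arrays, against 31.4% of all genes. COL1A2, a chain of type I collagen, had net intensities (mean foreground minus local background, in linear units) of 2576 and 1956 in Saos-2 but of 207 and 19154 in Saos-2-2. Its log2 ratios were -3.23 and 3.33. The median over spots of replicate 2 divided by replicate 1 stood at 0.947 in the Saos-2 channel and at 1.15 in the other. For COL1A2 the Saos-2-2 samples thus differed far more between the arrays than the Saos-2 samples did. Not every marker did so, and BGLAP, osteocalcin, stood at 251 and 185 in Saos-2-2 against 229 and 228 in Saos-2. Monocyte and macrophage markers gave 7 of 9 below 0 with a median of -0.11, hepatocyte markers 6 of 8 with a median of -0.05, and adipocyte markers 2 of 4 with a median of -0.10. These lists held 10, 8 and 6 markers, and PPARG and LEP of the adipocyte list were not among those tested. The study's gene table lists PPARG among the down-regulated genes. FABP4 was counted by its brightest clone, at -0.22, and its other clones were at 0.73 and -0.24. Before adjustment, with p under 0.05 as the limit, 0 monocyte and macrophage markers were higher and 2 lower, 1 hepatocyte marker was higher and 2 lower, and 0 adipocyte markers were higher and 1 lower. The last was LPL, lipoprotein lipase, at -0.97 and -0.93 (mean -0.95, standard error 0.10, limma adjusted p = 0.106). Their summed levels were not computed because levels of different clones cannot be added, and their medians of signal over background were 3.24, 4.39 and 14.7 in Saos-2 and 3.25, 3.78 and 11.9 in Saos-2-2. In bulk RNA of a cultured line, fewer cells expressing a gene and less RNA per cell cannot be told apart.

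**Figure D1:**
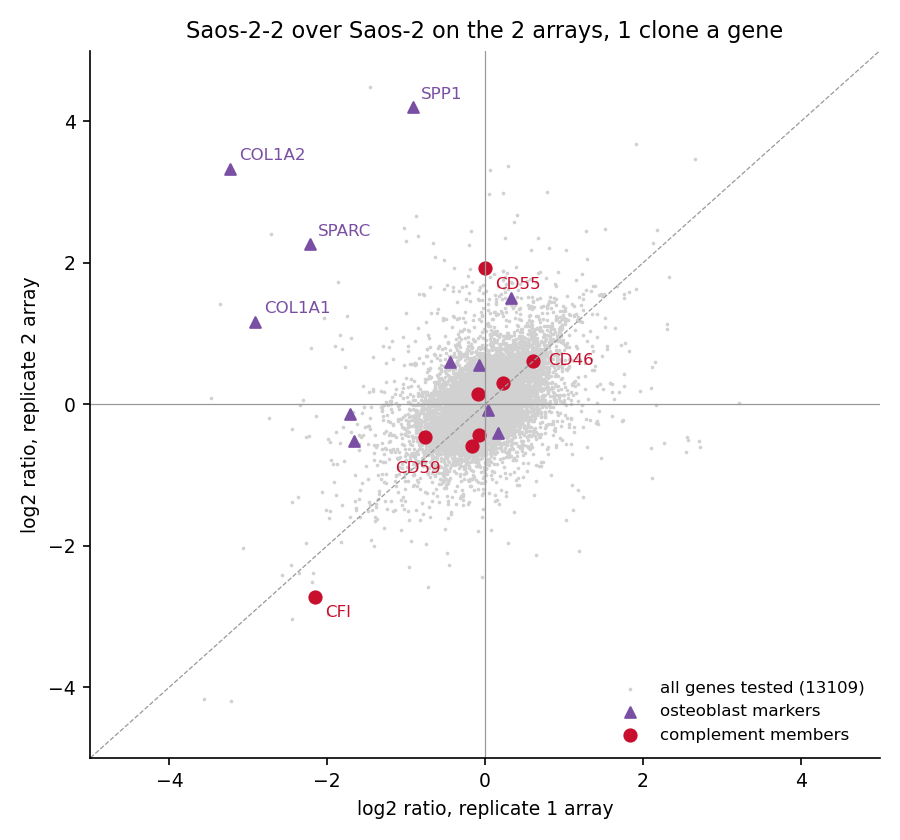
Each point is a gene, with its normalized log2 ratio of Saos-2-2 over Saos-2 on the replicate 1 array (horizontal) and the replicate 2 array (vertical). Grey points are all 13109 genes tested, triangles are osteoblast markers and red points are the 8 complement genes at their brightest clone. CFI sits near the diagonal at -2.16 and -2.72, CD55 lies at -0.0025 and 1.93, and the triangles of COL1A2, COL1A1, SPARC and SPP1 lie in the upper left.

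CFI was lower in Saos-2-2 on both arrays and in each of 3 spots of its only clone, IMAGE:292219. The gene lies on chromosome 4 (GRCh38.p14, 109730982 to 109801999). Net intensity was 645 and 631 in Saos-2 against 102 and 66.3 in Saos-2-2, and the samples of the lines did not overlap. For CFI, chosen by its ratio, this is a description. The share of all clones without overlap was not computed, so overlap is only described for the genes below too. Net intensities were not normalized between the dyes, and 38.1% of all clones tested had a mean log2 net ratio below 0. The Saos-2 signal was 15.4 and 15.2 times local background and the Saos-2-2 signal 3.17 and 2.34 times, so that CFI remained above background in both. The log2 ratio was -2.16 on replicate 1 and -2.72 on replicate 2, with a mean of -2.44 (standard error 0.18, n = 2), a level 5.42-fold lower. The 3 spots, which share the cDNA clone and are not replicates, lay between -2.25 and -1.99 on replicate 1 and between -2.94 and -2.50 on replicate 2. Only 9 of 34674 clones and 6 of 13109 genes had a lower mean, and 0.349% of all clones were 2-fold or more lower on both arrays. The size of the fold depended on the processing, with a mean log2 ratio of -2.44 without background correction, -3.02 with plain subtraction and -3.32 in the deposited log2 ratios. The study's gene table, made from these same arrays, already lists CFI among the down-regulated genes.

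The genes whose pair of array ratios lay nearest to that of CFI were ZNF654, PRSS23, NRP1, IL11 and SRPX. Their Euclidean distances to CFI over the 2 arrays were 0.211, 0.297, 0.336, 0.390 and 0.431 in log2 units. ZNF654, a zinc finger gene, was at -2.20 and -2.51. PRSS23 is annotated as a serine protease, as CFI is, and was at -1.98 and -2.96 with the brightest of its 4 tested clones. Its other clones were not compared with CFI. NRP1, a receptor for semaphorins and VEGF, was at -2.18 and -2.38, and IL11, a cytokine of the IL-6 family, was at -2.36 and -2.38. SRPX, which carries sushi repeats like those of many complement regulators, was at -2.45 and -3.03. The study's gene table lists ZNF654, NRP1, IL11 and SRPX, but not PRSS23, among the down-regulated genes. Likeness here rests on 2 values a gene.

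Of the 13 member clones other than CFI, none had an adjusted p under 0.05 (limma, Benjamini-Hochberg over 34674 clones), where 0 clones of the whole table were called in either direction (0%). Before adjustment, with p under 0.05 as the limit, Saos-2-2 was higher in 1 and lower in 2, against 13.5% and 9.7% of all clones (4665 and 3365). Of these 13, 5 were below 0 on both arrays, 2 above 0 on both and 6 of opposite signs, against 35.6%, 35.2% and 29.3% of all clones. The mean was below 0 in 8 of the 13, against 50.8% of all clones, and their median log2 ratio was -0.05, beside -0.01 for all clones tested. No difference between these shares and those of the table was tested. Clones of 1 gene are not independent.

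**Figure D2:**
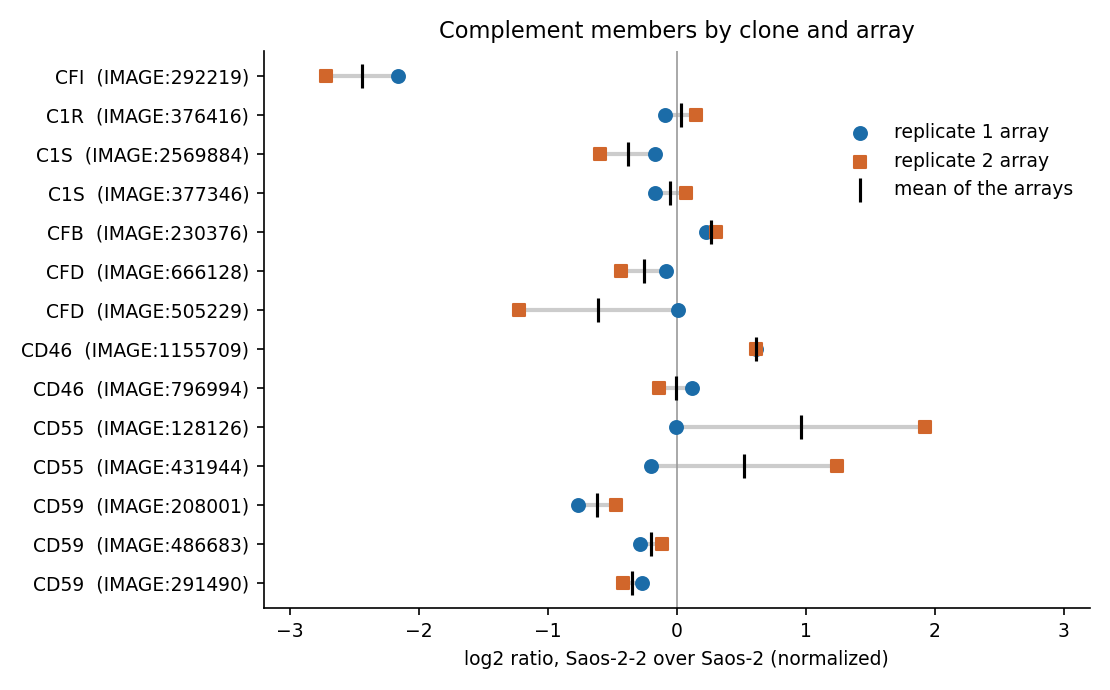
Normalized log2 ratio of Saos-2-2 over Saos-2 for each of the 14 member clones tested, with circles for replicate 1, squares for replicate 2 and a bar for the mean. CFI stands apart at -2.44, CD46 IMAGE:1155709 has both points at 0.61, and both CD55 clones span a wide range, from -0.0025 to 1.93 and from -0.20 to 1.24.

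C1R and C1S, the proteases of the C1 complex, lie next to each other on chromosome 12. C1R clone IMAGE:376416 gave net intensities of 130 and 111 in Saos-2 against 124 and 155 in Saos-2-2, and the lines overlapped. Its log2 ratio was -0.09 and 0.15 (mean 0.03, standard error 0.12, limma adjusted p = 0.892). The second C1R clone, IMAGE:83549, was marked unusable on both arrays.

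C1S gave 2 usable clones of unequal brightness. The brighter, IMAGE:2569884, had net intensities of 381 and 362 in Saos-2 against 313 and 249 in Saos-2-2, so that both Saos-2 samples were higher. Its log2 ratio was -0.17 and -0.59 (mean -0.38, standard error 0.15, limma adjusted p = 0.247). The dim clone IMAGE:377346, at 30 and 36 in Saos-2 against 23 and 54 in Saos-2-2, gave -0.17 and 0.07. The difference in C1S was therefore seen with the bright clone alone and did not pass the test.

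In the alternative pathway, CFB encodes the protease precursor that becomes the catalytic part of the convertase. Its tested clone IMAGE:230376 was dim, with net intensities of 37 and 23 in Saos-2 against 58 and 50 in Saos-2-2, 1.5 to 2.18 times local background. The Saos-2-2 values were higher on both arrays, with log2 ratios of 0.23 and 0.30 (mean 0.27, standard error 0.10, limma adjusted p = 0.242). With net ratios that were not normalized the mean was 0.88 and the adjusted p 0.0490, the only setting in which a tested member passed, where 8.71% of all clones were called higher. The mean was also higher with plain subtraction (0.60), the deposited log2 ratios (0.75) and the scanner's ratios (0.71), with adjusted p of 0.134, 0.0901 and 0.0830, and was 0.26 without background correction. The other CFB clone, IMAGE:741977, was usable on replicate 2 alone, at -0.23.

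CFD encodes factor D, a protease also known as adipsin for its release by fat cells. Its bright clone IMAGE:666128 had net intensities of 839 and 935 in Saos-2 against 712 and 720 in Saos-2-2, and the lines did not overlap. The log2 ratios were -0.08 and -0.43 (mean -0.26, standard error 0.14, limma adjusted p = 0.335). Clone IMAGE:505229 differed between arrays, with 294 and 292 in Saos-2 against 280 and 116 in Saos-2-2, and log2 ratios of 0.0066 and -1.23 (mean -0.61, standard error 0.33, adjusted p = 0.344). A difference between arrays as large as in IMAGE:505229 was found in 1.78% of clones. Both CFD clones were thus nearest to 0 on the replicate 1 array. The array sectors that hold them had medians below 0, at -0.10 and -0.19 for IMAGE:666128 and at -0.13 and -0.23 for IMAGE:505229. With loess fitted within each sector (print-tip loess) the means were -0.09 and -0.40. The part of the sector in the CFD values was not tested.

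The plot of net intensity gives the same data before normalization, and levels can be compared within a gene but not between genes, since clones differ in length and binding.

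**Figure D3:**
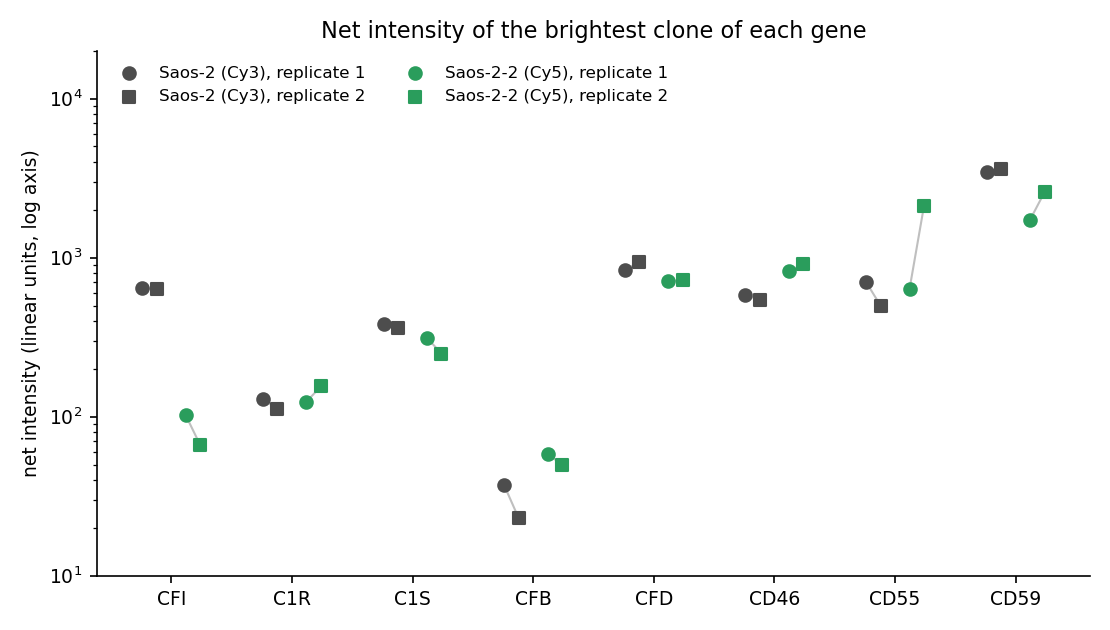
Net intensity of the brightest clone of each of the 8 genes, in linear units on a log axis, for Saos-2 (grey, Cy3) and Saos-2-2 (green, Cy5). Circles are replicate 1 and squares replicate 2. CFI stands at 645 and 631 in Saos-2 and at 102 and 66.3 in Saos-2-2, the CD55 value of Saos-2-2 on replicate 2 stands at 2113, and the CD59 values of Saos-2-2, 1735 and 2588, lie below both Saos-2 values.

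Among the membrane regulators, CD46 had the most even pair of values. CD46 is a transmembrane cofactor with which factor I cuts C3b and C4b. Clone IMAGE:1155709 had net intensities of 578 and 545 in Saos-2 against 823 and 911 in Saos-2-2, and the lines did not overlap. The log2 ratio was 0.61 on each array, 1.53-fold higher (standard error 0.10, limma adjusted p = 0.114, unadjusted p = 0.00469). The dim clone IMAGE:796994 had 71 and 29 in Saos-2 against 89 and 29 in Saos-2-2, a log2 ratio of 0.12 and -0.13 (adjusted p = 0.973). With the mean over both clones the value of CD46 was 0.30 (adjusted p = 0.255). The bright clone of CD46, the cofactor, lay above 0 and CFI, the protease, below it, while the mean of the dim CD46 clone was -0.0086. CFI, chosen by its ratio, was not tested, and CD46 did not pass the test.

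CD55, the decay-accelerating factor, differed between the arrays. Clone IMAGE:128126 had net intensities of 702 and 499 in Saos-2 against 635 and 2113 in Saos-2-2, so that 1 Saos-2-2 sample was high and the other lay within the Saos-2 range. The log2 ratios were -0.0025 and 1.93, the latter 3.80-fold higher (mean 0.96, standard error 0.51, limma adjusted p = 0.332). Clone IMAGE:431944 showed the same order, with 263 and 130 in Saos-2 against 214 and 416 in Saos-2-2. Its log2 ratios were -0.20 and 1.24 (mean 0.52, standard error 0.39, adjusted p = 0.459). Differences between arrays as large as these were found in 0.539% and 1.19% of clones. Without replicate 2 neither clone was above 0. The replicate in which CD55 was high is that in which Saos-2-2 had high COL1A2, COL1A1 (639 and 10520), SPARC (306 and 5863) and SPP1 (38 and 2363), and the part of this difference between samples in the CD55 result was not tested.

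CD59, which binds the forming membrane attack complex, was below 0 in all 3 clones on both arrays. Its bright clone IMAGE:208001, in 2 spots, had net intensities of 3476 and 3625 in Saos-2 against 1735 and 2588 in Saos-2-2, and the lines did not overlap. The log2 ratios were -0.76 and -0.47, 1.53-fold lower on average (mean -0.62, standard error 0.13, limma adjusted p = 0.132, unadjusted p = 0.00988). Clone IMAGE:291490 gave -0.27 and -0.42 (mean -0.35, standard error 0.11, adjusted p = 0.192), from net intensities of 70 and 81 in Saos-2 against 57 and 67 in Saos-2-2. Clone IMAGE:486683 gave -0.29 and -0.12 (mean -0.20, adjusted p = 0.344), and its net intensities overlapped, at 97 and 90 against 78 and 102. These 3 clones with 1 sign are not independent evidence, as they report 1 transcript in the same 2 samples, and CD59 did not pass the test. Of the 2 spots of IMAGE:208001, 1 carries a mark in the array's column for failed wells, which the files do not define.

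CD55 and CD59 are held in the membrane by a GPI anchor, so genes of anchor synthesis were counted. Of 28, 24 were tested, 0 had an adjusted p under 0.05 (limma), and 6 were below 0 against 52.6% of all genes, a count that was 14 in the deposited log2 ratios, 12 in the scanner's ratios of means and 10 with median centring, so that the direction depended on the scaling. Before adjustment, 3 had a p under 0.05 and were higher (11.8% of all genes) and 2 were lower (11.4%). PIGP, a subunit of the enzyme that starts the anchor, had the highest mean, 0.50 (0.50 and 0.51 on the arrays). PIGV, a mannosyltransferase, was at 0.49 and PGAP1, an inositol deacylase, at 0.31. DPM1, the catalytic subunit of dolichol phosphate mannose synthase, was at -0.60 and PIGU, of the transamidase, at -0.36. The lowest mean, -0.89, was that of DPM2, another subunit of the mannose synthase, with -1.67 and -0.11 on the arrays.

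Other genes of the complement system showed no common direction. Of 45 counted here, 34 were tested, 19 were below 0 and 15 above, 12 had opposite signs on the arrays, and the median was -0.01 beside -0.02 for all genes. The limma test called 0 of them after adjustment. With p under 0.05 before adjustment there were 3 higher genes and 5 lower ones, against 11.8% and 11.4% of all genes.

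VTN, which keeps the attack complex from inserting in membranes, had the highest mean of these, 0.71, with 0.46 and 0.97 on the arrays (standard error 0.17, limma adjusted p = 0.144). CSMD1, a membrane protein of many CUB and sushi domains, was at 0.38, with its second clone at -0.38.

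The subunits of C1q, the recognition part of C1, differed in sign. C1QB was at 0.64 and C1QA at -0.59, although another C1QA clone was at 0.41, and C1QC was at -0.06 with the brighter clone and at 0.53 with the other. CD93, a receptor once assigned to C1q, was at -0.36, and its dimmer clones were at -0.34 and 0.20. C6 and C8A, of the attack complex, were at -0.51 and -0.60, and CFP, properdin, which stabilises the alternative convertase, at -0.34. The lowest mean among the clones counted was that of ITGAM, a subunit of complement receptor 3, at -0.64, with -0.02 and -1.26 on the arrays. THBD, thrombomodulin, was at 0.05 with its only tested clone, IMAGE:682052, which was dim (1.48 to 1.71 times local background). The study's gene table lists THBD among the down-regulated genes, under a GenBank entry that was not matched to this clone. SERPING1, the C1 inhibitor that inactivates C1r and C1s, was at -0.12, with 0.06 and 0.19 in its other clones. For C1QA, C1QC, CD93, SERPING1 and CSMD1 the clones of the gene disagreed in the sign of the mean. The same held for C5, C7, COLEC12, FCN2, ITGB2 and MASP2, so that the counts by gene depend on the clone chosen.

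**Figure D4:**
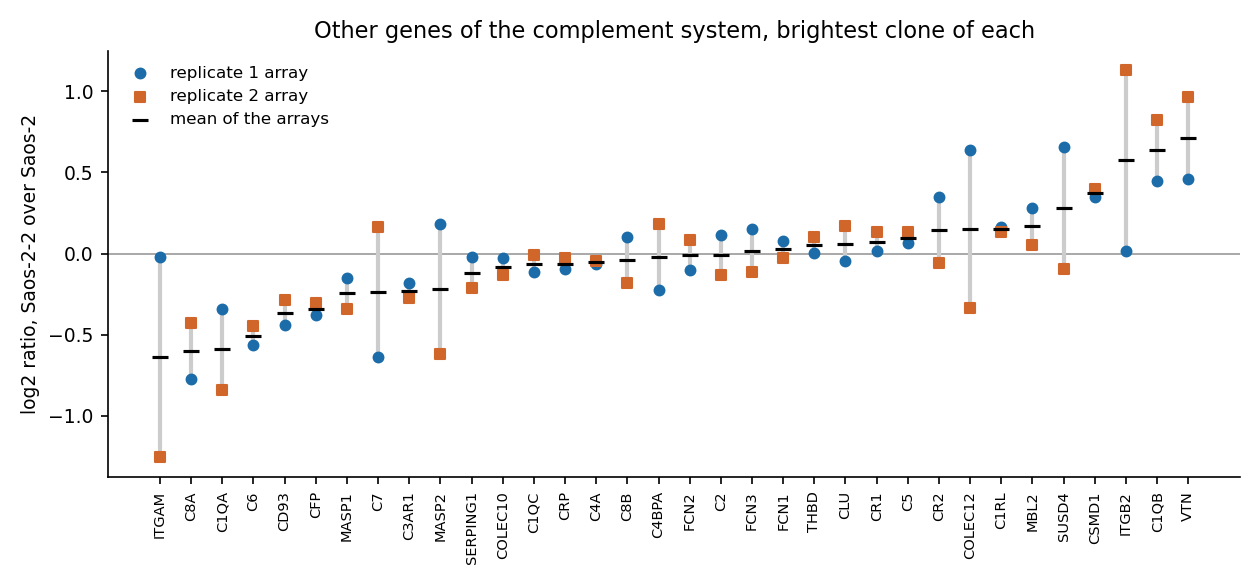
Normalized log2 ratio of Saos-2-2 over Saos-2 for the brightest clone of each of the 34 other complement genes tested, ordered by the mean, with circles for replicate 1, squares for replicate 2 and a bar for the mean. Values run from -0.64 for ITGAM to 0.71 for VTN, and 12 genes have points on both sides of 0.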

How the data were processed

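RNA of Saos-2-2 (Cy5) and Saos-2 (Cy3) was compared on 2 spotted cDNA arrays. The deposited scanner files hold foreground and background intensity for each spot and channel as linear values, not normalized. The authors also deposited a series table of log2 ratios, used as an alternative. Agilent Feature Extraction is named in the submitters' processing notes, and the study names limma for its gene table; its background correction and normalization are not given in the sources used here. No other sample's columns were present.

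Members were all spots named for the listed genes, older names included. Members and gene lists were chosen with earlier results of these data known. Spots marked unusable (3749 and 4381) and 226 control spots were left out. In R 4.3.3 with limma 3.58.1, mean foregrounds were corrected by normexp (offset 50), each array was normalized by global loess, and spots of a clone were averaged. Clones with 1 channel at 1.5 times background or more on both arrays were kept. A single-column limma model tested each mean log2 ratio against 0, with Benjamini-Hochberg adjustment over all 34674 clones. The brightest clone stood for a gene. Named were all members, the highest and lowest of each list, list members at an unadjusted p under 0.05, and the 5 genes nearest to CFI. COL1A1, COL1A2, SPARC, SPP1, BGLAP, SERPING1, C1QC, C5, C7, COLEC12, FCN2, ITGB2, MASP2, THBD, FABP4, PPARG and LEP were named after the results were seen. Some complement genes are not reported here and were left out of the list's counts. The scripts were tested on simulated data. With 2 arrays, their number limits the precision. Standard errors and p-values used limma's moderated variance, which combines a clone's spread between the arrays with that over all clones. The prior had 2.75 degrees of freedom, so they do not measure the spread between a clone's own samples alone. Alternatives changed the background correction, foreground, normalization, filters, values and variance model, and left out each array in turn. Promoters came from RefSeq (GRCh38.p14). Pictures were drawn with matplotlib 3.10.9.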

Additional observations from a re-analysis of the deposited data

How the results depend on the processing

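Of 217 alternative values for the 14 member clones, 200 kept their direction and side of the threshold or, for CFI, lay within 1 SD, and 8 clones kept 1 sign in every setting. No clone of the table was called in the analysis reported, but 2148 were with the deposited table (1585 higher, 563 lower), 1703 with the scanner's ratios of means (1323 and 380) and 3545 with net ratios that were not normalized (3019 and 526), and the cause was not tested. CFI moved to -3.02 with plain subtraction, -3.32 with the deposited table, -3.13 with the scanner's ratios and -2.95 with net ratios. CFB passed with net ratios (0.88, adjusted p = 0.0490; range over settings 0.0490 to 0.272). C1S clone IMAGE:377346 turned above 0 with median foregrounds (0.00045), the deposited table (0.0255) and net ratios (0.10), and CD46 clone IMAGE:796994 with print-tip loess (0.14), median centring (0.0243) and net ratios (0.16). With each array left out in turn, values ran from -2.72 to -2.16 for CFI, -0.0905 to 0.15 for C1R, -0.59 to -0.17 and -0.17 to 0.0702 for C1S, -0.43 to -0.08 and -1.23 to 0.0066 for CFD, -0.13 to 0.12 for CD46 clone IMAGE:796994, and -0.0025 to 1.93 and -0.20 to 1.24 for CD55. CD59 clone IMAGE:208001 stayed between -0.94 and -0.47 in all settings, with limma adjusted p between 0.0567 and 0.151. The mean over all CD59 clones was -0.39 (limma adjusted p = 0.209). GPI anchor genes below 0 numbered 6, and 10 with median centring, 14 with the deposited table, 12 with the scanner's ratios and 9 to 10 with an array left out. No paired analysis was possible because the arrays form 1 group, with no second group that shares its replicate numbers; the test against 0 already uses the difference between the lines within each array. With net ratios the median of all clones stood 0.12 higher than in the analysis reported. A signal near local background, as for CFB, limits what its ratio can show.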
